A study of Mus musculus with 9 samples.

Results

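The genes described here serve protein folding, translocation, and quality control in the endoplasmic reticulum (ER), together with the sensors and transcription factors of ER stress. They were taken by name from a list of 40 genes, and 39 of them were measured by a probe set assigned to a single gene symbol, of 19937 genes so measured. Each gene is given by its probe set of highest mean. *Sec61g*, which encodes the gamma subunit of the translocon, lay only on 3 probe sets that also name other genes, and no value is given for it. All 39 genes were brighter on average than the median of all probe sets, which was 5.94 on the log2 scale. By role they comprised 6 sensors and transcription factors, 11 chaperones and co-chaperones, 4 protein disulfide isomerases, 10 genes of the translocon and signal peptidase, and 8 genes of ER-associated degradation.

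The populations compared were sorted from BM of untreated C57Bl/6 mice, 8 weeks old and kept free of specific pathogens. All were Ly6Chi CD115+ and, per the study's methods, negative for lineage markers and MHCII. R3 pre-DCs were Flt3+CD11c+, R2 monocytes Flt3+CD11c-, and R1 monocytes Flt3-CD11c-. Each was measured on 3 whole-transcript arrays, and the comparisons ask how the pre-DCs differ from the monocytes that share their Ly6Chi CD115+ phenotype, and the Flt3+ from the Flt3- monocytes. The labels give each array a date, shared by 1 array of each population, and these dates are called replicates 1 to 3. The sources do not say whether replicates came from separate mice or pools, so the p-values reflect only how these arrays vary, and that variation may be technical. The number of arrays limits the precision. In sorted bulk samples, fewer cells of a type and less RNA per cell cannot be told apart.

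Proteins that enter the secretory pathway cross the ER membrane through the Sec61 translocon, lose their signal peptide, and fold with the help of chaperones and disulfide isomerases. Proteins that fail to fold are returned to the cytosol and degraded. When unfolded proteins accumulate, the membrane sensors IRE1 (*Ern1*), PERK (*Eif2ak3*), and ATF6 start the unfolded protein response: IRE1 splices *Xbp1* mRNA into the form that encodes the active transcription factor, PERK slows translation and favors ATF4, and ATF6 is cleaved into a transcription factor. XBP1 is known for its role in the secretory capacity of plasma cells and in the upkeep of DCs. Whole-transcript probe sets do not separate spliced from unspliced *Xbp1*.

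The promoters of many chaperone genes hold the ER stress response element (ERSE), which is bound by NF-Y together with ATF6 or XBP1. RefSeq promoter windows (GRCm38.p6, 250 bases before to 50 after each gene's start) were searched on both strands for ERSE (CCAAT, 9 bases of any kind, then CCACG), ERSE-II (ATTGG, 1 base of any kind, then CCACG), the core of the XBP1 element known as UPRE (TGACGTGG), and the composite element of ATF4 and C/EBP factors (TGATGNAA). Windows were held for 32 of the 40 genes, and *Derl2* had 2. *Atf6*, *Ssr2*, *Sec61a1*, *Manf*, *Sec11c*, *Spcs3*, *Hyou1*, and *Derl1* had none. ERSE was matched in 9 of the 32 genes (28.1%) and in 39 of all 32851 windows (0.119%). The matches are shown because these 9 genes, with the pair that hold ERSE-II, form the group of 11 whose values are set beside the other genes later. In each, capitals mark the letters of the motif and lower case the 9 free bases between them. The following matches lie on the strand of the gene.
*Canx*, chr11:50325800-50325818: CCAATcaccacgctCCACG
*Dnajc3*, chr14:118937827-118937845: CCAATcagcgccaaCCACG
*Hsp90b1*, chr10:86705638-86705656: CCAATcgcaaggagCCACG
*Hspa5*, chr2:34772025-34772043: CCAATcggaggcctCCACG
*Pdia6*, chr12:17266491-17266509: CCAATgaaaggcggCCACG
*Syvn1*, chr19:6046532-6046550: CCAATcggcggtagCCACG
The following are read 5′ to 3′ on the strand opposite to the gene.
*Calr*, chr8:84847075-84847093: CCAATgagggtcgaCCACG
*Creld2*, chr15:88819520-88819538: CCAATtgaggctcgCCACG
*Derl3*, chr10:75893242-75893260: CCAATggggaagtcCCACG
*Hsp90b1*, chr10:86705533-86705551: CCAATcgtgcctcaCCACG

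ERSE-II was matched in *Herpud1* and *Dnajb11*, against 12 of all windows (0.0365%). Both matches lie on the strand of the gene, with the free base in lower case.
*Dnajb11*, chr16:22857852-22857862: ATTGGcCCACG
*Herpud1*, chr8:94386377-94386387: ATTGGgCCACG
The composite element was matched only in *Herpud1* among the 32 genes, on the opposite strand, against 3.97% of all windows.
*Herpud1*, chr8:94386317-94386324: TGATGcAA
The core of UPRE was matched in 0 of the 32 genes and in 0.676% of all windows. The letters CCACG are shared by ERSE, ERSE-II, and the reverse complement of the UPRE core. A match describes the letters of the window and is not a binding site, and no match says only that these letters are not in this window.

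For comparison, the 250 bases before the start are shown for *Hspa5*, which holds the classical ERSE (capitals), and for *Xbp1* and *P4hb*, the genes that differed most between R3 and R2 among the 39. The 4 motifs were not found in the windows of *Xbp1* and *P4hb*, so these have no letters in capitals. *Hspa5* and *Xbp1* lie on the plus strand (chr2:34771840-34772089 and chr11:5520391-5520640) and *P4hb* on the minus strand (chr11:120573254-120573503).
*Hspa5*: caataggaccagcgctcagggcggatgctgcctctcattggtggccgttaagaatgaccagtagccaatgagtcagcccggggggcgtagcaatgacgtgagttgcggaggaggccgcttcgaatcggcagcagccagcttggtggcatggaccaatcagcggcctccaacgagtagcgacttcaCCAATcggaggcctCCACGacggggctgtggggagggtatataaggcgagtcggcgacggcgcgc
*Xbp1*: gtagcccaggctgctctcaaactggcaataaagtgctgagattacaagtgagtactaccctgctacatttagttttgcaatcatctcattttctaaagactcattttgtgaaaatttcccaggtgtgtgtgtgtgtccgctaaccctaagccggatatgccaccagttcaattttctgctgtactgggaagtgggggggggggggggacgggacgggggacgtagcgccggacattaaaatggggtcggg
*P4hb*: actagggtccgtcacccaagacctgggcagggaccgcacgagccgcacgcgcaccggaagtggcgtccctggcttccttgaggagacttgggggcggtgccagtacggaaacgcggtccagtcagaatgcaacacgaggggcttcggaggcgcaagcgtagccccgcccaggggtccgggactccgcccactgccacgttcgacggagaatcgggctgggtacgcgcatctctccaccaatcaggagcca

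The sort gates and the markers of other cell types were read on the same arrays. *Flt3* and *Itgax*, the genes of Flt3 and CD11c, averaged log2 intensities of 11.04 and 10.78 in R3, 7.91 and 5.84 in R2, and 7.23 and 5.21 in R1. Of 12 pre-DC and conventional DC genes, R3 had 10 higher against R2 and 11 against R1 at an adjusted p under 0.05 in limma, with a mean log2 level over the list of 9.79 to 10.22 in R3, 7.48 to 8.23 in R2, and 7.09 to 7.83 in R1. Of 10 monocyte genes, R3 had 6 lower and 1 higher against R2 and 7 lower against R1 (8.10 to 8.49 in R3, 10.01 to 10.25 in R2, and 10.39 to 10.64 in R1). Of 12 primary granule and neutrophil precursor genes, R3 had 6 lower against either (7.06 to 9.11 in R3, 9.48 to 10.08 in R2, and 8.96 to 9.73 in R1), and of 10 plasmacytoid DC genes 7 higher against R2 and 8 against R1 (9.14 to 9.53 in R3, 7.10 to 7.23 in R2, and 6.85 to 7.01 in R1). Of 15 proliferation genes, R3 had 1 higher against R2 (6.67%) and 5 against R1 (33.3%), and R2 had 3 higher against R1 (20%). At that threshold 9.55% of all genes differed between R3 and R2, 13.5% between R3 and R1, and 0.391% between R2 and R1. Of 10 plasma cell genes, which include *Xbp1*, R3 had 2 higher (*Slamf7* and *Irf4*) and 2 lower (*Xbp1* and *Txndc5*) against R2, and the defining *Jchain* averaged 3.29 in R3, 3.45 in R2, and 3.41 in R1, below the median probe set. The part of these differences in the values of the ER genes was not tested.

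R3 pre-DCs differed from R2 monocytes in 5 of the 39 genes. *Xbp1*, *P4hb*, *Ern1*, and *Edem1* were lower in R3, by 1.62-, 1.66-, 1.30-, and 1.30-fold, and *Eif2ak3* was higher by 1.47-fold. These are genes with an adjusted p under 0.05 in limma, with Benjamini-Hochberg adjustment over all 19937 genes, here termed called. The 5 genes were 12.8% of the 39, against 9.55% of all genes (4.85% higher and 4.69% lower in R3). At an unadjusted p under 0.05 there were 9 of the 39, against 19.4% of all genes. Among the 10862 genes brighter than the median probe set, 16.4% were called, a larger share than among the ER genes. The 4 lower genes were 10.3% of the 39, against 8.14% of the brighter genes.

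R3 pre-DCs differed from R1 monocytes in 7 of the 39 genes (17.9%), against 13.5% of all genes (6.49% higher and 7.02% lower in R3) and 23.1% of the brighter ones. At an unadjusted p under 0.05 there were 14 of the 39, against 24.1% of all genes. The same *Xbp1*, *P4hb*, *Ern1*, and *Edem1* were lower in R3, together with *Derl1* and *Dnajb9*, and *Eif2ak3* was again the only higher gene. The R3 arrays enter both comparisons, so the pair of results is not independent. Between R2 and R1 monocytes 0 of the 39 genes were called, against 0.391% of all genes (0.211% higher and 0.181% lower in R2). At an unadjusted p under 0.05, limma gave 3 of them (*Dnajb9*, *Syvn1*, and *Derl2*), against 10.7% of all genes. The methods' t-test gave 3 unadjusted, against 7.46% of all genes, and 0 after adjustment.

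**Figure D1:**
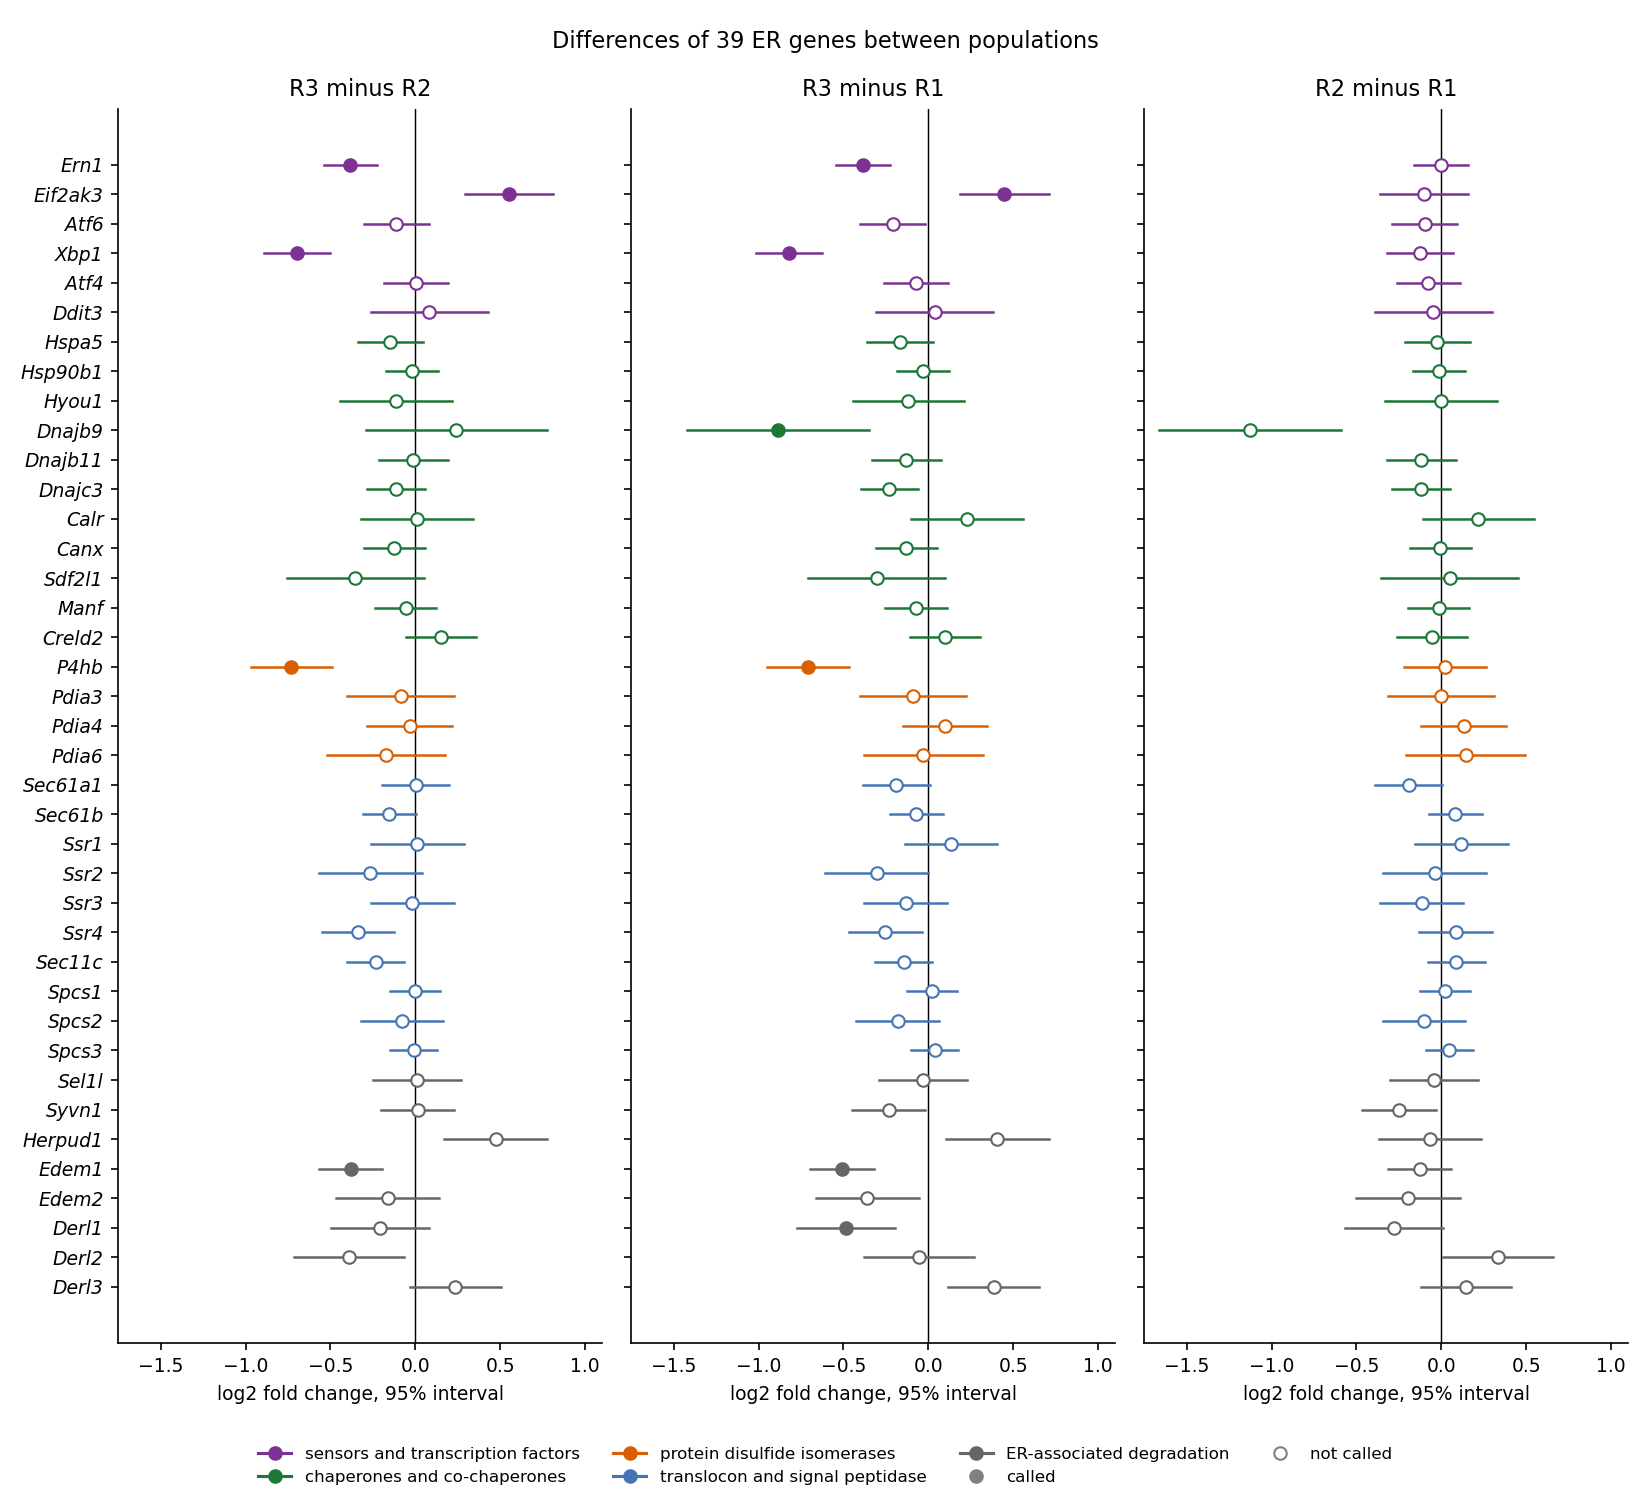
Log2 fold changes of the 39 ER genes between populations, with 95% confidence intervals from limma, ordered and colored by role. Filled points are called (5 for R3 minus R2, 7 for R3 minus R1, 0 for R2 minus R1), and most other points lie close to 0.

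For most of the 39 genes the data bounded the difference to within 2-fold. Between R3 and R2 the called genes also met this bound. The 95% interval of the difference lay within 2-fold in either direction for 39 genes between R3 and R2, for 37 between R3 and R1, and for 38 between R2 and R1. It lay within 1.5-fold for 32, 28, and 37 genes. The median log2 difference of the 39 genes was -0.08 between R3 and R2, -0.13 between R3 and R1, and -0.02 between R2 and R1, against -0.01, -0.02, and -0.02 over all genes. The mean was lower in R3 than in R2 for 26 of the 39 genes and higher for 13, against 52.3% and 47.6% of all genes. It was lower in R3 than in R1 for 29, against 55.7% of all genes (44.2% higher), and lower in R2 than in R1 for 26, against 55.7% (44.2% higher). All R3 arrays lay below all R2 arrays for 11 genes and above them for 2, against 12.2% and 12.6% of all genes. All R3 arrays lay below all R1 arrays for 8 genes and above for 2, against 12.9% and 11.6% of all genes. All R2 arrays lay below all R1 arrays for 4 genes and above for 2, against 7.99% and 5.44% of all genes.

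**Figure D2:**
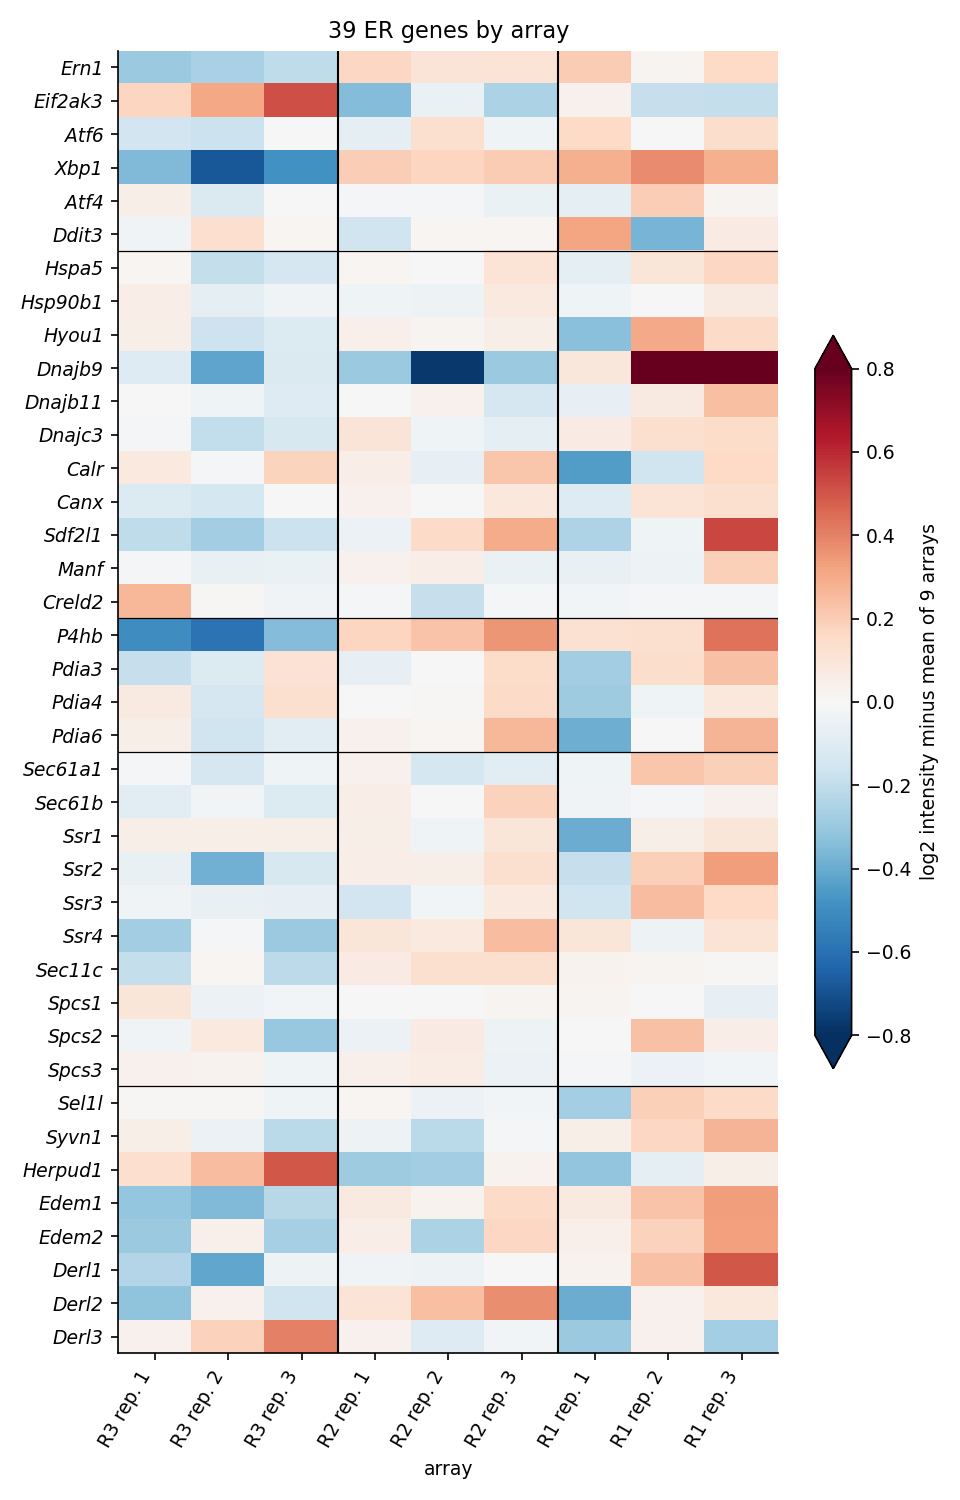
Log2 intensity of the 39 ER genes on each array minus the gene's mean over 9 arrays, with genes in rows by role and arrays in columns. Red is above and blue below the mean, and the scale ends at 0.8 in both directions. *Xbp1*, *P4hb*, *Ern1*, and *Edem1* are blue on the 3 R3 arrays, and *Eif2ak3* is red.

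Among the sensors and transcription factors, 3 of 6 genes (*Xbp1*, *Ern1*, and *Eif2ak3*) were called in R3 against either monocyte population, where 9.55% (R2) and 13.5% (R1) of all genes were. Of the brighter genes 16.4% (R2) and 23.1% (R1) were called. *Xbp1*, the transcription factor whose mRNA is the substrate of IRE1, had log2 intensities of 9.33, 9.0, and 9.20 in R3, of 9.88, 9.85, and 9.88 in R2, and of 9.97, 10.06, and 9.96 in R1. All R3 arrays lay below all R2 and R1 arrays, and the R2 arrays lay just below those of R1. Values of single arrays are log2 intensities for all genes that follow. The log2 difference was -0.70 ± 0.09 between R3 and R2 (SE, adjusted p = 0.00081) and -0.82 ± 0.09 between R3 and R1 (adjusted p = 0.00023). Between R2 and R1 it was -0.13 (adjusted p = 0.69). *Xbp1* stayed called in R3 against either monocyte population in all 22 alternatives that gave an adjusted p, with the highest p at 0.0448 against R2 and 0.0439 against R1.

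*Ern1*, the gene of the sensor IRE1, read 8.65, 8.68, and 8.74 in R3, 9.11, 9.05, and 9.05 in R2, and 9.15, 8.97, and 9.10 in R1. R3 lay below both monocyte populations with no overlap, while R2 and R1 overlapped. On the log2 scale R3 differed by -0.38 ± 0.07 from R2 (SE, adjusted p = 0.0077) and -0.38 ± 0.07 against R1 (adjusted p = 0.0058), and it was -0.00 between R2 and R1. By the methods' t-test after adjustment the gene was not called against R1 (adjusted p = 0.0706). In limma with 2 dates in place of 3 it was not called against either population. Without replicate 1, 2, or 3 of all populations, the adjusted p was 0.0824, 0.0942, or 0.0824 against R2 and 0.0719, 0.056, or 0.0685 against R1.

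*Eif2ak3*, which encodes the eIF2α kinase PERK, went the other way. It read 9.04, 9.18, and 9.39 in R3, 8.52, 8.82, and 8.61 in R2, and 8.90, 8.68, and 8.68 in R1, so that every R3 array lay above every monocyte array. Log2 differences were 0.55 ± 0.12 against R2 (SE, adjusted p = 0.015) and 0.45 ± 0.12 against R1 (adjusted p = 0.031). With the date as a replicate block the adjusted p against R1 was 0.0592, and with only the 6 arrays compared it was 0.0645. The methods' t-test after adjustment gave 0.141 against R2 and 0.195 against R1. The call against R2 was lost without R2 replicate 1 (0.0687), without R2 replicate 3 (0.0648), and without replicate 1, 2, or 3 of all populations (0.0537, 0.0986, and 0.2). That against R1 was lost without R3 replicate 2 (0.0754), R3 replicate 3 (0.0945), R2 replicate 3 (0.0524), R1 replicate 2 (0.1), or R1 replicate 3 (0.0956), and without replicate 2 or 3 of all populations (0.218 and 0.284).

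The other sensors and factors were not called in any comparison. *Atf6*, the gene of the membrane-bound transcription factor, read 9.37, 9.35, and 9.53 in R3, 9.44, 9.65, and 9.49 in R2, and 9.68, 9.53, and 9.66 in R1. *Atf4*, the transcription factor downstream of PERK, read 9.89, 9.73, and 9.85 in R3, 9.83, 9.83, and 9.79 in R2, and 9.77, 10.04, and 9.87 in R1. *Ddit3*, which encodes the stress-induced factor CHOP, read 7.79, 7.96, and 7.83 in R3, 7.66, 7.83, and 7.83 in R2, and 8.13, 7.45, and 7.89 in R1. The populations overlapped for all 3 genes. Between R3 and R2 the 95% interval of the log2 difference was -0.30 to 0.08 for *Atf6*, -0.18 to 0.19 for *Atf4*, and -0.26 to 0.43 for *Ddit3*.

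**Figure D3:**
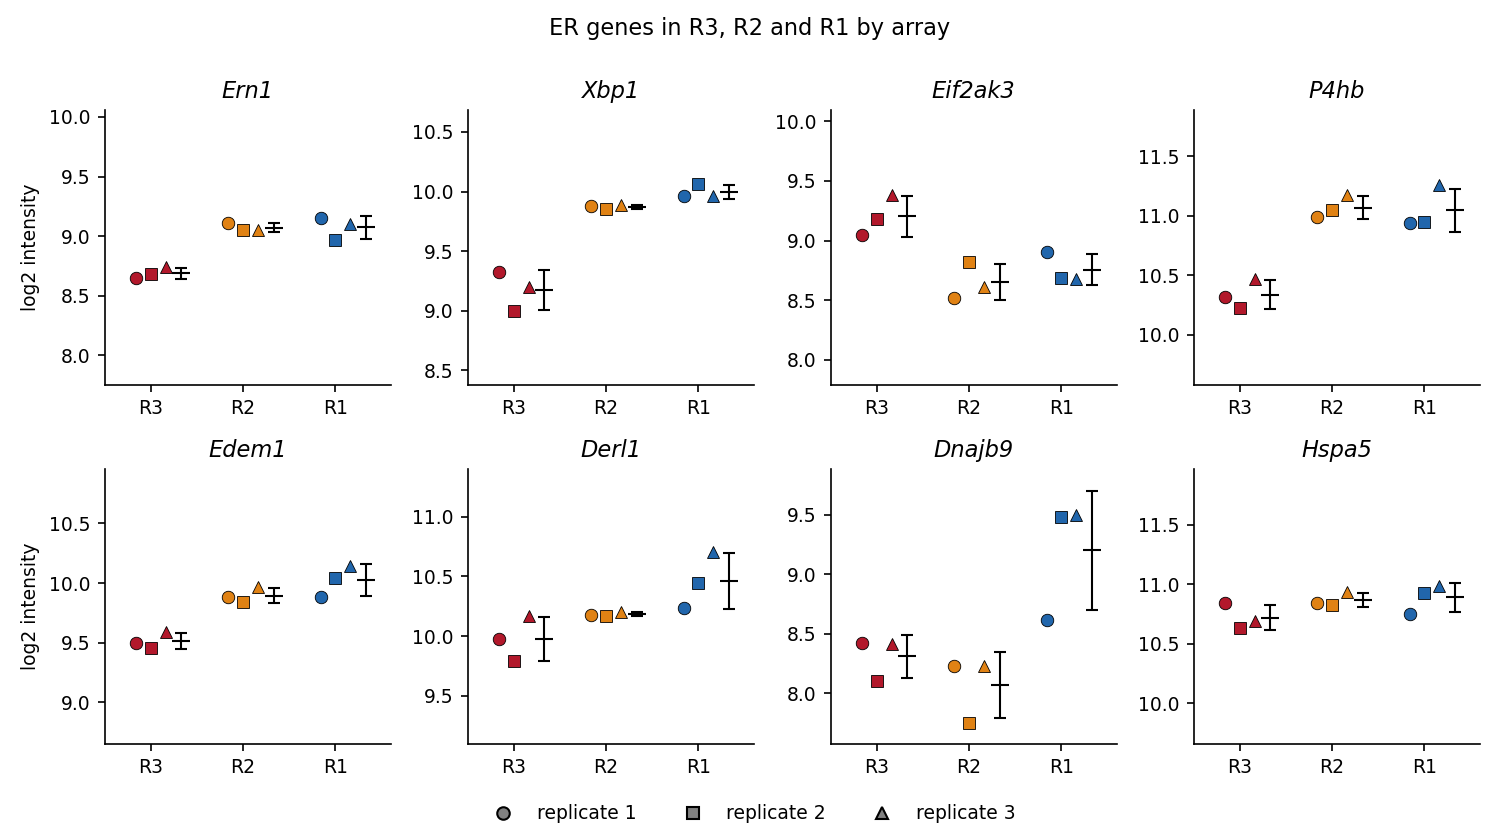
Log2 intensity of 8 ER genes on each array (symbols by replicate) in R3, R2, and R1, with the mean and SD of 3 arrays beside the points. Each panel has its own range of equal height. R3 lies apart from both monocyte populations for *Ern1*, *Xbp1*, *Eif2ak3*, *P4hb*, and *Edem1*, and *Dnajb9* is high on 2 of the 3 R1 arrays.

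Of the 11 chaperones and co-chaperones, R3 against R2 gave 0 calls and R3 against R1 gave 1, *Dnajb9* (0% and 9.09%). Over all genes 9.55% and 13.5% were called, so that counts of 0 and 1 among 11 genes lie near those shares. *Hspa5*, which encodes the ER Hsp70 protein BiP, read 10.84, 10.63, and 10.69 in R3, 10.84, 10.82, and 10.94 in R2, and 10.75, 10.92, and 10.99 in R1. The populations overlapped. R3 differed by -0.15 from R2 (adjusted p = 0.44, 95% interval -0.34 to 0.05) and -0.17 from R1 (adjusted p = 0.29, 95% interval -0.36 to 0.03). *Hsp90b1*, the gene of the ER Hsp90 protein GRP94, differed by -0.02 between R3 and R2 and -0.03 between R3 and R1. The lectin chaperone genes *Canx* and *Calr* differed by -0.12 and 0.01 between R3 and R2. Among genes of the BiP cofactors, *Hyou1* (a nucleotide exchange factor) differed by -0.11, *Dnajb11* by -0.01, *Dnajc3* by -0.11, and *Sdf2l1* by -0.35 between R3 and R2. *Sdf2l1* was the only chaperone gene whose R3 arrays all lay below the R2 arrays (adjusted p = 0.34). *Manf* and *Creld2*, which encode ER stress-inducible proteins, differed by -0.06 and 0.15.

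*Dnajb9* encodes ERdj4, a BiP co-chaperone that in other systems is a target of spliced XBP1 and represses IRE1. It had the largest spread of the 39 genes, with an SD of 0.50 in R1. It read 8.42, 8.11, and 8.41 in R3, 8.23, 7.76, and 8.23 in R2, and 8.62, 9.48, and 9.50 in R1. Replicates 2 and 3 of R1 stood well above all other arrays, and R1 replicate 1 stood closer to R3. R3 was 1.85-fold lower than R1 (log2 -0.89 ± 0.24, SE, adjusted p = 0.037), and R3 and R2 did not differ beyond their spread (0.24, adjusted p = 0.70). R2 was 2.18-fold lower than R1 (log2 -1.13 ± 0.24), with no overlap but an adjusted p of 0.099, the only difference of at least 2-fold among the 39 genes in any comparison. Without R1 replicate 1 it was -1.42 between R2 and R1 and called (adjusted p = 0.0429).

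The call of *Dnajb9* between R3 and R1 was lost in 12 of 22 alternatives. It was lost without R3 replicate 1, 2, or 3 (adjusted p = 0.0764, 0.124, and 0.0722), R2 replicate 1 or 3 (0.0587 and 0.0595), or R1 replicate 2 or 3 (0.126 and 0.121), and without replicate 2 or 3 of all populations (0.315 and 0.253).

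Among the 4 protein disulfide isomerases only *P4hb* was called, against R2 and against R1 (25% each). Over all genes 9.55% (R2) and 13.5% (R1) were called, and among the brighter genes 16.4% and 23.1%. *P4hb* encodes PDI, which forms and rearranges disulfide bonds and is also a subunit of prolyl 4-hydroxylase. It read 10.32, 10.22, and 10.47 in R3, 10.99, 11.05, and 11.17 in R2, and 10.94, 10.94, and 11.25 in R1. Every R3 array lay below every monocyte array, and R2 and R1 overlapped. The log2 difference was -0.73 ± 0.11 against R2 (SE, adjusted p = 0.0021) and -0.71 ± 0.11 against R1 (adjusted p = 0.0019), and 0.02 between R2 and R1. Without replicate 2 of all populations the adjusted p was 0.0719 against R2 and 0.0538 against R1. By the methods' t-test after adjustment it was 0.0841 against R1. The related *Pdia3*, *Pdia4*, and *Pdia6* differed by -0.09, -0.03, and -0.17 between R3 and R2 and by -0.09, 0.10, and -0.03 between R3 and R1, and the 3 were not called.

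Of the 10 genes of the translocon and signal peptidase, 0 were called in any comparison of the main fit. The translocon subunit genes *Sec61a1* and *Sec61b* differed by 0.00 and -0.15 between R3 and R2. Other probe sets of *Sec61b* gave -0.31 and -0.18. The signal peptidase genes *Spcs1*, *Spcs2*, and *Spcs3* differed by 0.00, -0.08, and -0.01, and the catalytic subunit gene *Sec11c* by -0.23 (adjusted p = 0.095, and 0.0281 without R3 replicate 2). Among genes of the translocon-associated protein complex, *Ssr1* differed by 0.01, *Ssr2* by -0.27, *Ssr3* by -0.02, and *Ssr4* by -0.34. All R3 arrays of *Ssr4* lay below those of R2 (10.20, 10.47, and 10.18 against 10.58, 10.56, and 10.73), with an adjusted p of 0.061, and without R3 replicate 2 it was called (-0.43, adjusted p = 0.0193). It was also called against R2 in limma with array weights (0.0444), with a mean-variance trend (0.048), and among the brighter genes only (0.043). Against R1 it was called without R3 replicate 2 (0.0388). *Ssr1* had the same deposited value in the 3 arrays of R3, so that R3 added no spread to its error.

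In ER-associated degradation, *Edem1* was called against both monocyte populations and *Derl1* against R1, of 8 genes. These were 12.5% of the 8 genes against R2 and 25% against R1, where 9.55% and 13.5% of all genes were called. Of the brighter genes 16.4% and 23.1% were called. *Edem1* encodes a mannosidase-like protein that hands misfolded glycoproteins on to degradation. It read 9.50, 9.46, and 9.59 in R3, 9.89, 9.84, and 9.96 in R2, and 9.88, 10.04, and 10.15 in R1. R3 lay below both without overlap. Log2 differences were -0.38 ± 0.08 against R2 (SE, adjusted p = 0.019) and -0.51 ± 0.08 against R1 (adjusted p = 0.0030). The call against R2 was lost with arrays centred on their medians (0.125), without R3 replicate 1 (0.0631), R3 replicate 2 (0.0684), R2 replicate 1 (0.063), or R2 replicate 3 (0.0773), and without replicate 1, 2, or 3 of all populations (0.0919, 0.207, and 0.0893). The call against R1 was lost without replicate 2 of all populations (0.0983) and by the methods' t-test after adjustment (0.0772). Its relative *Edem2* differed by -0.16 against R2 and -0.36 against R1, and was not called.

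*Derl1* encodes a membrane protein of the retrotranslocation machinery. It read 9.97, 9.79, and 10.16 in R3, 10.18, 10.17, and 10.21 in R2, and 10.23, 10.44, and 10.70 in R1, with R3 lowest, R2 between, and R1 highest, and with no overlap. Its log2 difference was -0.21 against R2 (adjusted p = 0.47) and -0.48 ± 0.13 against R1 (SE, adjusted p = 0.035). The call was lost in 13 of 22 alternatives, among them leaving out R3 replicate 1 or 2 (0.0936 and 0.119), R2 replicate 1, 2, or 3 (0.0615, 0.0608, and 0.0608), R1 replicate 2 or 3 (0.0864 and 0.0943), or replicate 1, 2, or 3 of all populations (0.0871, 0.318, and 0.0738).

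*Herpud1*, whose product organizes the degradation complex, was the gene with the largest difference upward after *Eif2ak3*. It read 9.59, 9.69, and 9.95 in R3, 9.16, 9.17, and 9.47 in R2, and 9.13, 9.37, and 9.50 in R1, so that R3 lay above both. The log2 difference was 0.47 ± 0.13 against R2 (SE, adjusted p = 0.061) and 0.41 ± 0.13 against R1 (adjusted p = 0.084), and the gene was not called. With the date as a replicate block it was called in both (adjusted p = 0.0069 and 0.011), and R3 was higher on each date. Without R2 replicate 3 or R1 replicate 1 it was also called against R2 (0.0477 and 0.0439). The same held in limma with quantile normalization (0.0409), with array weights (0.0158), and among the brighter genes only (0.0374).

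The other derlin genes, of the same family as *Derl1*, were not called in any comparison. *Derl2* differed by -0.39 between R3 and R2 (adjusted p = 0.16, and 0.043 with the replicate block), and by -0.06 between R3 and R1. *Derl3* differed by 0.24 and 0.38 (adjusted p = 0.33 and 0.065), and was called against R1 without R3 replicate 1 (0.0461) or R1 replicate 2 (0.0278). Its mean log2 intensity was 6.18 in R3, 5.95 in R2, and 5.80 in R1, near the median probe set (5.94). *Sel1l* and *Syvn1*, which encode the core of the HRD1 ubiquitin ligase, differed by 0.01 and 0.01 between R3 and R2. *Syvn1* differed by -0.23 between R3 and R1, with no overlap (adjusted p = 0.17).

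The 11 genes with ERSE or ERSE-II letters were then set beside the others, since ATF6 and XBP1 are known to act through these elements. In the main fit none of the 11 was called in any comparison. Of all genes 9.55% were called between R3 and R2, 13.5% between R3 and R1, and 0.391% between R2 and R1. A count of 0 among 11 genes lies near the share of all genes. They had log2 differences of -0.17 to 0.47 (median -0.01) between R3 and R2 and of -0.23 to 0.41 (median -0.03) between R3 and R1. In some other settings *Herpud1* was called in R3 against R2 and R1, as with the replicate block (limma adjusted p = 0.0069 and 0.011). *Derl3* was called against R1 in some, as without R1 replicate 2 (0.0278). Of the 20 genes whose window held neither, 1 was higher and 4 were lower between R3 and R2, and 1 was higher and 5 lower between R3 and R1. Among the genes brighter than the median probe set, 16.4% and 23.1% were called in these comparisons. Of the 8 genes with no window, R3 against R2 gave 0 calls and R3 against R1 gave 1, *Derl1*. The windows of *Xbp1*, *Ern1*, *P4hb*, *Edem1*, *Dnajb9*, and the higher *Eif2ak3* held no match to either element. The difference between these groups was not tested.

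**Figure D4:**
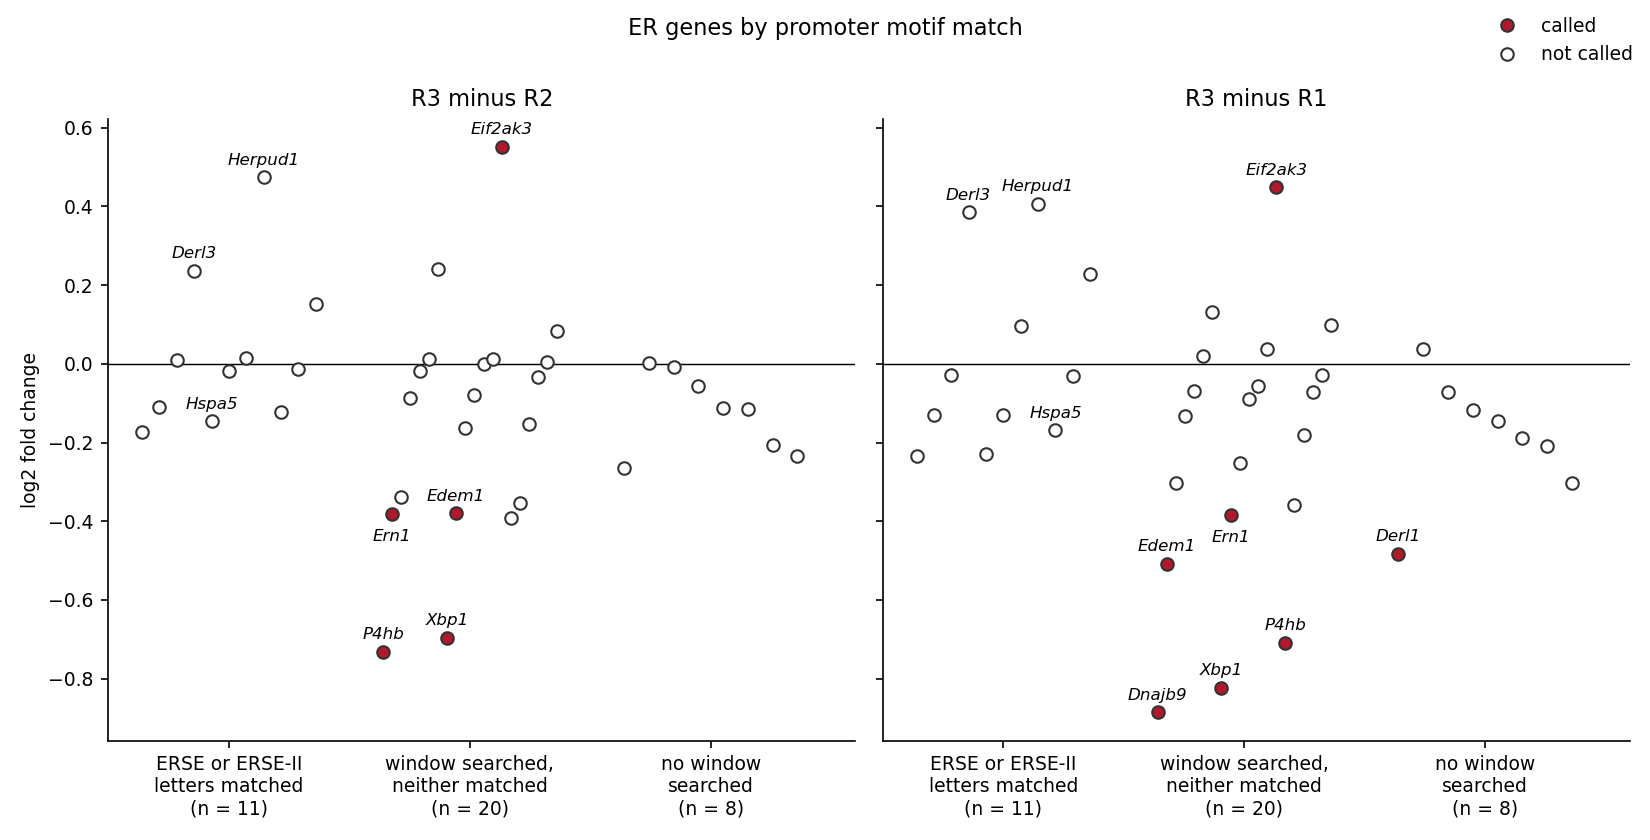
Log2 fold change of each of the 39 ER genes, R3 minus R2 and R3 minus R1, by whether ERSE or ERSE-II letters were matched in its promoter window. Filled points are called. All 11 genes with a match are open points in the main limma fit shown here.

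The R1 arrays had the largest median spread, among these genes as among all genes. R1 replicate 1 was the lowest R1 array for 30 of the 39 genes (76.9%), against 36% of all genes, and the median SD of the 39 genes was 0.10 in R3, 0.09 in R2, and 0.14 in R1, against 0.10, 0.09, and 0.13 over all genes. Over the 39 genes the median deviation from the gene's mean was between -0.07 and -0.02 on the R3 arrays, between 0.00 and 0.08 on the R2 arrays, and -0.03, 0.05, and 0.15 on replicates 1, 2, and 3 of R1. Without R1 replicate 1, 10 of the 39 genes were called between R3 and R1. Those added were *Hyou1* (-0.30, adjusted p = 0.0469), *Sec61a1* (-0.27, adjusted p = 0.0492), and *Ssr2* (-0.45, adjusted p = 0.0249), all lower in R3. The share of all genes called without that array is not given here, so the rise cannot be set against it. By the order of means, 17 of the 39 genes (43.6%) were highest in R1 and lowest in R3 with R2 between, against 25.6% of all genes.

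Genes of the wider secretory pathway were read from 7 further lists, beside 9.55% of all genes called between R3 and R2 and 13.5% between R3 and R1 (16.4% and 23.1% of the brighter genes). Many of their counts changed by over 1.5 times among 22 alternative settings, and the range over these is given with each. The list of 36 other ER folding genes includes *Grpel1*, whose product is mitochondrial. Of the 36 genes, 7 differed between R3 and R2 (3 higher and 4 lower in R3), or 19.4%. Between R3 and R1, 9 differed (3 higher and 6 lower), or 25%. These counts ranged over 1 to 12 and 0 to 11. The largest difference was that of *Ero1a*, which encodes the oxidase that recharges PDI. It read 8.54, 8.29, and 8.33 in R3, 9.50, 9.38, and 9.44 in R2, and 9.40, 9.26, and 9.67 in R1, so that every R3 array lay below every monocyte array. Log2 differences were -1.06 ± 0.11 against both R2 and R1 (SE, adjusted p = 0.00031 and 0.00024). *Txndc5*, a further disulfide isomerase gene, had log2 differences of -0.48 between R3 and R2 (adjusted p = 0.013) and -0.47 between R3 and R1 (adjusted p = 0.012). It was not called against R2 without R2 replicate 1 or 2 or without any of the 3 dates, and not called against R1 without replicate 2 or 3 of all populations. None of the 12 oligosaccharyltransferase genes, whose products attach N-glycans, was called in any comparison (0 to 1 in either under the other settings).

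Among 23 other genes of targeting and translocation, R3 against R2 gave 1 higher and 1 lower gene, and R3 against R1 gave 3 lower genes and 0 higher, or 8.70% and 13%, close to the shares of all genes (9.55% and 13.5%). The counts ranged over 0 to 6 in both. Among 21 other genes of ER-associated degradation, only *Man1b1* was called between R3 and R2, and R3 against R1 gave 1 higher (*Man1b1*) and 1 lower gene, or 4.76% and 9.52% (ranges 0 to 1 and 1 to 4). It encodes an ER mannosidase that trims misfolded glycoproteins, and was higher in R3 by 0.57 than in R2 (adjusted p = 0.0028) and by 0.72 than in R1 (adjusted p = 0.00053). Against R2 it was not called without replicate 1 of all populations (0.0558). Among 37 genes of ER to Golgi transport, 7 differed between R3 and R2 (3 higher and 4 lower in R3) and 9 between R3 and R1 (2 higher and 7 lower), or 18.9% and 24.3%, and the counts ranged over 0 to 8 and 0 to 13. *Tmed3*, a cargo receptor gene of the p24 family, was higher in R3 by 1.00 than in R2 (adjusted p = 0.0065) and by 1.24 than in R1 (adjusted p = 0.0015). Against R2 it was not called without replicate 2 or 3 of all populations (0.115 and 0.0844).

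Targets of the integrated stress response, in which PERK and its sister kinases act through ATF4, gave 0 higher and 2 lower of 28 genes between R3 and R2, and 3 higher and 5 lower between R3 and R1. These were 7.14% and 28.6%, against 9.55% and 13.5% of all genes, and the counts ranged over 2 to 5 and 2 to 9. The lower genes against R2 were *Cebpb* and *Nupr1*. *Cebpb*, a myeloid transcription factor gene, read 7.26, 7.24, and 7.49 in R3, 8.84, 8.80, and 8.90 in R2, and 9.02, 9.15, and 9.33 in R1. R3 lay far below both monocyte populations. The log2 difference was -1.52 ± 0.10 against R2 (SE, adjusted p = 1.6e-05) and -1.84 ± 0.10 against R1 (adjusted p = 3.8e-06). *Nupr1*, a stress-inducible nuclear protein gene, had log2 differences of -1.54 between R3 and R2 (adjusted p = 0.00042) and -1.72 between R3 and R1 (adjusted p = 0.00017). Of 21 regulators of ER stress, only *Eif2ak4* was called between R3 and R2, and 5 were called between R3 and R1 (2 higher and 3 lower in R3), or 4.76% and 23.8% (ranges 0 to 3 and 0 to 5). *Eif2ak4*, which encodes the amino acid-sensing kinase GCN2, was higher in R3 by 0.59 than in R2 (adjusted p = 0.0083) and by 0.63 than in R1 (adjusted p = 0.0045). It was not called without replicate 1 of all populations (0.124 against R2 and 0.078 against R1), nor against R2 without replicate 2 (0.0719). Between R2 and R1, 0 genes of the 7 lists were called. The median log2 difference of these lists lay between -0.07 and 0.05 for R3 minus R2 and between -0.18 and -0.03 for R3 minus R1.

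**Figure D5:**
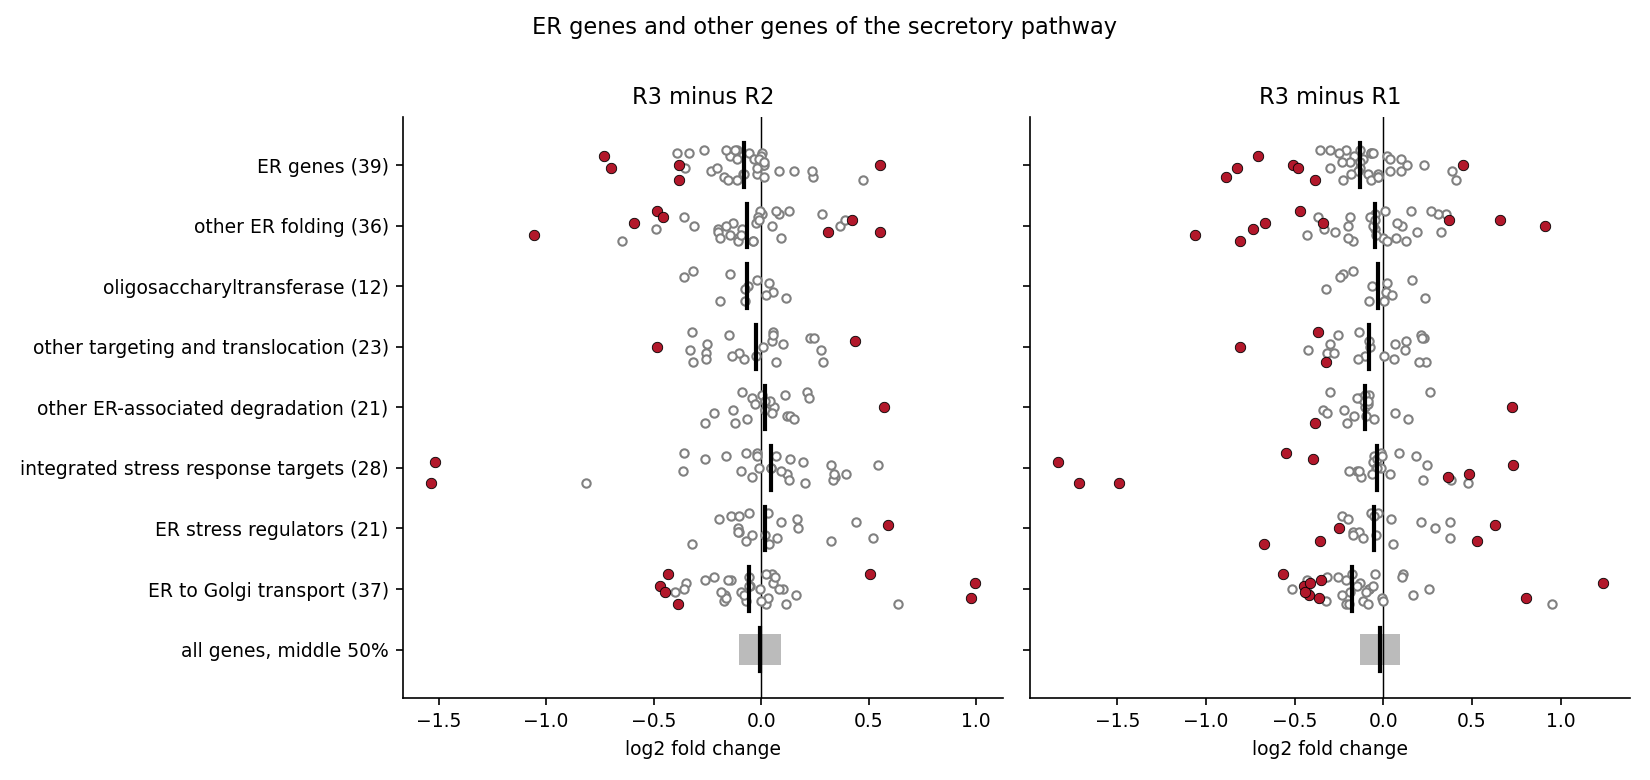
Log2 fold changes of the 39 ER genes and of 7 further lists (number of genes in parentheses), R3 minus R2 and R3 minus R1. Filled red points are called, black bars are medians, and the grey bar spans the middle 50% of all 19937 genes. For R3 minus R1 the median of ER to Golgi transport (-0.18) lies below the grey bar, which starts at -0.13. Single genes such as *Ero1a*, *Cebpb*, and *Nupr1* stand apart.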

How the data were processed

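The 40 genes and all lists were chosen with earlier results of these data known. Sorted cells gave 1 ng RNA per array, which the authors amplified (NuGEN Ovation Pico WTA v2), labeled with biotin, and hybridized to Affymetrix Mouse Gene ST arrays. The values the authors deposited are linear intensities of 34760 probe sets on each array, and the sources used here give neither their background correction nor their normalization. Array medians were 58.0 to 64.7, and 1638 probe sets held 1 value in all 3 arrays of a population.

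By the platform annotation, 21640 probe sets name 1 gene, 1321 several, and 11799 none, and 21553 were matched by Entrez ID to RefSeq (GRCm38.p6). The log2 of the deposited intensity was fitted with limma 3.58.1 (R 4.3.3; lmFit, eBayes) in 1 model of 3 populations over 9 arrays with 6 residual degrees of freedom, and p-values were adjusted by Benjamini-Hochberg within each comparison. The fit was tested on simulated data.

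Per-array values are given for genes called in a comparison with 1 direction on all 3 dates and for *Xbp1*, *Ern1*, *Atf6*, *Eif2ak3*, *Atf4*, *Ddit3*, and *Hspa5*. Values of *Herpud1*, *Ssr4*, and the list genes *Ero1a* and *Cebpb* were added after they were seen. From each list, at most 4 called genes and its defining markers are named. *Ly6c1* and *Ly6c2* had no probe set of their own. Lists of B cell, T and natural killer cell, erythroid, and pre-DC genes were also read: against R2, R3 had 1 higher of 9, 1 lower of 9, 1 higher of 5, and 10 higher of 12. These were 11.1%, 11.1%, 20%, and 83.3%, against 9.55% of all genes.

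The labels give a shared date to 1 array of each population. Deviations of same-date arrays correlated at -0.02 to 0.15 over all genes, against -0.15 to 0.08 for different dates. The date entered an alternative fit as a replicate block. Further alternatives were median centring, quantile normalization, array weights, a mean-variance trend, a brightness filter, a pseudocount of 16, the mean of a gene's probe sets, the methods' unpaired t-test, only the 6 arrays compared, and leaving out each array or date. The same settings were run for the 7 lists, an addition made after seeing the data. Protein sequences were not analysed here.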

Additional observations from a re-analysis of the deposited data

How the results depend on the processing

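Of the 5 genes called between R3 and R2 and the 7 between R3 and R1, *Xbp1* was called in all 22 alternatives with an adjusted p. The count was 10 of 39 for R3 against R2 by the methods' t-test unadjusted, where 17.4% of all genes had p under 0.05. For R3 against R1 it was 1 by the methods' t-test after adjustment and 4 with only the 6 arrays compared. For R2 against R1 it was 1 with array weights (*Dnajb9*) and 3 by the unadjusted t-test (7.46% of all genes). The shares of all genes called under the other settings of this section are not given here. With arrays centred on their medians, the median difference of the 39 genes was -0.027 for R3 against R2 and -0.10 for R2 against R1, where that of all genes was also -0.10. Leaving out arrays or dates gave counts of 1 to 6 for R3 against R2, 1 to 10 for R3 against R1, and 0 to 1 for R2 against R1, and medians of -0.09 to -0.04, -0.21 to -0.08, and -0.08 to 0.02.

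For R3 against R2 the count was 3 without R2 replicate 1 and 2, 1, and 2 without replicates 1, 2, and 3 of all populations. For R3 against R1 it was 4 without R2 replicate 3 or R1 replicate 3, and 1 and 3 without replicates 2 and 3 of all populations. With the replicate block the counts were 7, 7, and 0, and beyond *Herpud1*, *Derl2*, and *Eif2ak3* it changed no call of the 39 genes. No direction of a called gene turned in any alternative. Over combinations of gene, comparison, and setting, calls of the 11 ER genes that the naming rule gives by array held in 215 and were lost in 61, and calls of the genes it takes from the other lists held in 944 and were lost in 229. The precision is limited by 3 arrays a population.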
